A study of Mus musculus with 4 samples.

Results

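The genes described here are the D-type cyclins Ccnd1, Ccnd2 and Ccnd3, their partner kinases Cdk4 and Cdk6, the Cip/Kip inhibitors Cdkn1a, Cdkn1b and Cdkn1c, and the INK4 inhibitors Cdkn2a and Cdkn2c. They were taken by gene symbol, with every transcript listed under it, and make up 10 of 25177 gene symbols and 16 of 40739 RefSeq transcripts in the authors' deposited table. Of these genes, 8 were measured above the floor on low levels and 2 had no reads. RNA from nuclei was sequenced with a directional kit in NIH-3T3 cells, a mouse embryonic fibroblast line, 6 h after doxycycline (2 libraries, Dox) or solvent alone (2 libraries, noDox). The dose was 500 ng/ml by the extraction protocol, although the treatment protocol writes microlitre as the volume. Both groups carry H2B-mCherry, the rtTA3G transactivator and CDX2 under the TRE3G promoter, which rtTA3G activates when doxycycline is present. No doxycycline-treated cells without the CDX2 transgene were analysed here, so an effect of the drug and one of CDX2 cannot be told apart. The labels do not say whether the libraries came from separate cultures or how many clones the line holds.

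Progress from G1 into S phase depends on D-type cyclins, which bind and activate CDK4 and CDK6. The active kinases phosphorylate RB1 and its relatives, which then release E2F factors that transcribe genes of DNA replication. INK4 proteins bind CDK4 and CDK6 directly, whereas Cip/Kip proteins bind cyclin-CDK complexes and inhibit mainly those of CDK2. In fibroblasts, growth factors induce Ccnd1, and p53 induces Cdkn1a after DNA damage. CDX2 is a homeobox transcription factor of trophectoderm and intestine that fibroblasts do not normally use.

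Promoter sequence came from RefSeq on build GRCm38.p6, as the 250 bases before each annotated start. It was found for 7 of the 10 genes, with 11 promoters in all, and not for Ccnd1, Ccnd2 and Cdkn1c. The promoters of Cdkn1a, Cdkn1b, Cdk6 and Cdkn2c are shown because the levels of these genes moved in different directions, and that of Cdk4 is shown as the partner kinase that was not called. Capitals mark every match to the motifs named after the sequences, and each sequence reads 5′ to 3′ on the strand of its gene.
Cdkn1a, chr17:29093519-29093768, plus strand, start of NM_007669: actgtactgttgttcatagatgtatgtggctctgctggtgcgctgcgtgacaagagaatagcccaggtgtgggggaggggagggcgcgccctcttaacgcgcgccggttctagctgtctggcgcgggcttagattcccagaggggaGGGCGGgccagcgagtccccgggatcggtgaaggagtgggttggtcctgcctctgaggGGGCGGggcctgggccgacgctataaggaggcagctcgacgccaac
Cdkn1a upstream start, chr17:29090729-29090978, plus strand, start of NM_001111099: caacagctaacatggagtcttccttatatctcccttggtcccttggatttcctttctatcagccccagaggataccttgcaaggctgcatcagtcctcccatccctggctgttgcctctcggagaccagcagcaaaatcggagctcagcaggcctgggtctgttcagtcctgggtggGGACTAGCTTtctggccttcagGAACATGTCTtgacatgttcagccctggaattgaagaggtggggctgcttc
Cdkn1b, chr6:134920151-134920400, plus strand: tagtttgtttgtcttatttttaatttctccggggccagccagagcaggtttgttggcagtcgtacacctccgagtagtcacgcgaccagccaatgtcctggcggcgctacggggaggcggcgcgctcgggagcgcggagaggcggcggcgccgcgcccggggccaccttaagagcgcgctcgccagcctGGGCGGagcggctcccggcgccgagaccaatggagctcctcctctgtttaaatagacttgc
Cdk6, chr5:3343643-3343892, plus strand: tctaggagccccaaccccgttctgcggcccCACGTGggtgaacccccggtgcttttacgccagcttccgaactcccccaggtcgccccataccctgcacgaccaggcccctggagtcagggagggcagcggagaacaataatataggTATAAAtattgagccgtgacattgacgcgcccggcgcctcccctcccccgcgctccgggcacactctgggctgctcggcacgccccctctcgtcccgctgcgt
Cdk4, chr10:127063285-127063534, plus strand: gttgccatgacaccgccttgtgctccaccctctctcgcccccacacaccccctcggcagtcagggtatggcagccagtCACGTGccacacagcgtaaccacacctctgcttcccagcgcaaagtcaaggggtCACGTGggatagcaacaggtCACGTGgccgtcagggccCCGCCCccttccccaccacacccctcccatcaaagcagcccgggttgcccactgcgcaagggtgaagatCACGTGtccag
Cdkn2c, chr4:109666757-109667006, minus strand, start of NM_001301368: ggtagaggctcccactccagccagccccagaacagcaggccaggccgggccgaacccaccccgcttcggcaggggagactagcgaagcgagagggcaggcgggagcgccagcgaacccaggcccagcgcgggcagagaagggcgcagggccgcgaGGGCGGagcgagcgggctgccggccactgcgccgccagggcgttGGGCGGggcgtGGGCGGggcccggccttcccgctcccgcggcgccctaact

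In all, 8 motifs were searched on both strands, and they were chosen with these promoters in view. The GC box GGGCGG occurred 2 times at the Cdkn1a start, 1 time at Cdkn1b, 1 time at Cdk4 and 3 times at the Cdkn2c start, and 32.7% of all 32851 promoters of this length hold it. The GC box also occurred 2 times and 1 time in the 2 Ccnd3 promoters and 2 times in 1 Cdkn2a promoter. The genes' promoters with a GC box had GC contents of 59.6% to 78.4%, against a median of 52.4% over all promoters. The E-box CACGTG, which MYC and related factors bind, occurred 4 times in the Cdk4 promoter and 1 time in that of Cdk6, against 6.02% of all promoters with a match. The Cdk6 promoter also held the TATA box TATAAA, which 12.4% of all promoters hold. The full p53 site, a pair of half-sites with no spacer and no mismatch, was in none of the genes' promoters and in 0.00913% of all promoters. A single p53 half-site was then searched as well, after the full site had given no match, and it occurred 2 times at the upstream Cdkn1a start, against 7.13% of all promoters with a match. The half-site GAACATGTCT there is followed directly by tgacatgttc, which departs from the half-site motif only at its first base. Pairs with a spacer or a mismatch were not searched, in these promoters or in all, so no share of promoters can be set beside this pair. For the same reason the search does not show that paired sites are absent. A CDX site was searched as TTTATNG and was in 0 of the 11 promoters, against 9.81% of all. The FOXO site GTAAACA was matched in 1 Ccnd3 promoter (3.17% of all promoters), and the E2F site TTTNGCGC in 1 Cdkn2a promoter (1.13% of all). A full p53 site would contain the half-site, and no matches in these promoters overlapped. A match describes letters in this window and does not show that a factor binds there.

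The table gives 1 comparison for each transcript and no value for single libraries. Levels in CPM, read counts scaled to the library total, were therefore computed for each group from the mean log2 CPM and the log2 fold change, Dox over noDox, and are geometric means of 2 libraries with no spread of their own. The standard error (SE) of a log2 fold change is the fold change divided by its t in the authors' deposited table. Level and fold accounted for 99.2% of the variance of the log SE over 9441 genes, so an SE reflects a spread pooled over genes rather than a gene's own replicates. A gene was called when the adjusted p of the authors' limma fit was below 0.05. By this rule 24.7% of 12355 tested genes were called in the authors' deposited table, 11.3% of them higher and 13.4% lower as shares of all tested genes. The effective depth was about 4.57e+07 counts per library as a geometric mean. Cdx2 itself had 612 CPM in Dox and 4.96 CPM in noDox, a log2 fold change of 6.95 ± 0.091 (SE) in the authors' deposited table, and reads of the transgene and of the endogenous gene cannot be told apart in it. All 7 fibroblast markers were tested, with a summed level of 5193 CPM in Dox and 6314 CPM in noDox. Of these, 6 were lower in the authors' deposited table, with log2 fold changes from -0.81 (Pdgfrb) to -0.26 (Fn1), and Thy1 had 0.30 without a call (adjusted p = 0.0962 by limma). Of the markers of other cell types, 1 of 4 epithelial, 1 of 3 leukocyte and 1 of 3 endothelial markers passed the floor, with no mean level above 3.86 CPM, and Krt18 had no reads. The epithelial marker tested, Cdh1, was lower at 0.464 CPM in Dox and 1.43 CPM in noDox (log2 fold change -1.62 ± 0.22 (SE), adjusted p = 2.14e-11 by limma, authors' deposited table). The part of the marker genes in the results below was not tested.

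Among the 8 genes measured, the 2 Cip/Kip inhibitors Cdkn1a and Cdkn1b were higher with doxycycline, and Ccnd1, Cdk6 and Cdkn2c were lower. Ccnd2, Ccnd3 and Cdk4 were not called. Thus 2 of 8 were called higher and 3 of 8 lower, against 11.3% and 13.4% of all genes tested. The median log2 fold change of the 8 genes was -0.040, and that of all tested genes was -0.0011, in the authors' deposited table. When standard errors were multiplied by 2.08 (the SD of t over all tested genes, estimated from its median absolute deviation), 3 of the 8 were called (Cdk6, Cdkn1a and Cdkn2c), against 4.66% of all tested genes. In RNA of a whole cell population, a change in the share of cells that hold a transcript and a change in RNA per cell cannot be told apart.

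**Figure D1:**
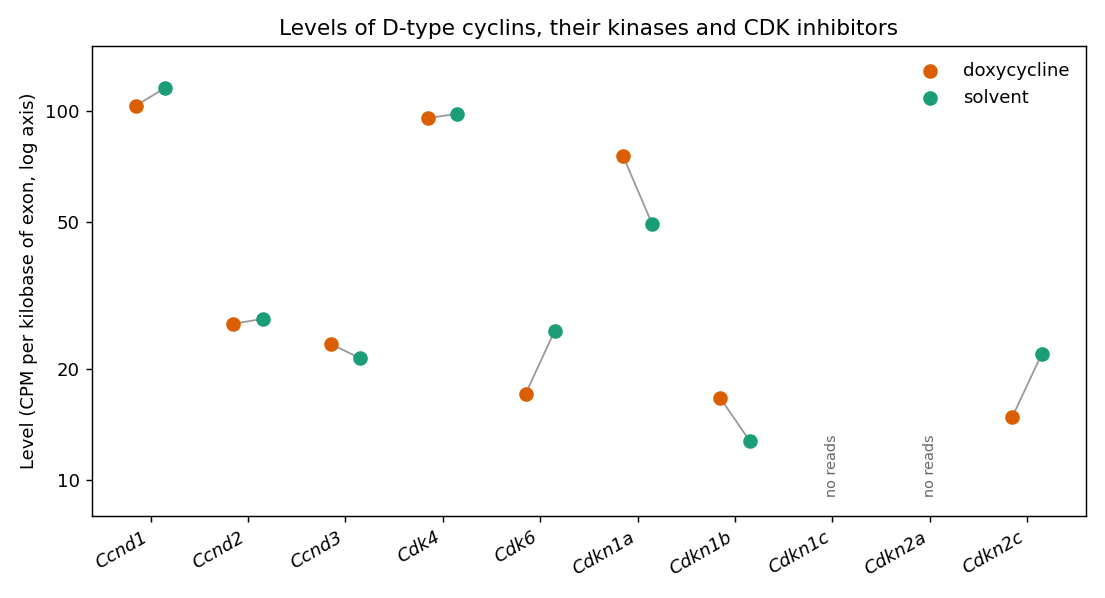
Level of each gene in CPM per kilobase of exon (log axis) in doxycycline-treated (orange, left of each pair) and solvent-treated (green, right) cells, as geometric means of 2 libraries; lines join the 2 groups of a gene. Cdkn1a and Cdkn1b lie higher with doxycycline, Cdk6 and Cdkn2c lie lower, and Cdkn1c and Cdkn2a had no reads.

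Of the D-type cyclins, Ccnd1, the form that growth factor signalling induces most directly in fibroblasts, had the highest level. Ccnd1 (NM_007631, build mm10 like all transcript coordinates given here, chr7:144929931-144939925, minus strand) had 391 CPM in Dox and 437 CPM in noDox, or 103 and 115 CPM per kilobase of exon in Dox and noDox. Its log2 fold change was -0.16 ± 0.059 (SE; 95% interval -0.28 to -0.044) with an adjusted p of 0.0472 by limma in the authors' deposited table, a level 10.5% lower. A change at least as far from 0 was seen in 43.2% of all tested genes, and the level of Ccnd1 was above that of 99.4% of them in CPM. Ccnd1 lost its call with widened standard errors (adjusted p = 0.797), with the ribosomal protein genes as the zero point (-0.12, adjusted p = 0.131), after removal of the trend of the fold with level (-0.085, adjusted p = 0.321) and at a threshold of 0.01.

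Ccnd2, a cyclin prominent in lymphoid and ovarian granulosa cells, had 153 CPM in Dox and 157 CPM in noDox, or 26.5 and 27.3 CPM per kilobase in Dox and noDox. Its row (NM_009829, chr6:127125709-127151048, minus strand) had a log2 fold change of -0.043 ± 0.063 (SE; 95% interval -0.17 to 0.080) and an adjusted p of 0.873 by limma in the authors' deposited table. Ccnd3, the D-type cyclin expressed most widely across tissues, had 46.0 CPM in Dox and 42.1 CPM in noDox, or 23.4 and 21.4 CPM per kilobase in Dox and noDox. Its row with the highest level (NM_007632, chr17:47593467-47599688, plus strand) had a log2 fold change of 0.13 ± 0.069 (SE; 95% interval -0.0073 to 0.26) and an adjusted p of 0.258 by limma in the authors' deposited table. The 2 other Ccnd3 transcripts start upstream at 47505051, and their log2 fold changes in the authors' deposited table were 0.13 (NM_001081636) and 0.12 (NM_001081635), neither called. With the ribosomal protein genes as the zero point Ccnd3 was called (0.17, adjusted p = 0.0456). For Ccnd2 the sign turned under that zero point and after removal of the trend with level.

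Changes were set against each other within the family, as differences of log2 fold changes that take the errors of 2 genes as independent. In all, 6 pairs of genes were compared this way, from standard errors that were not widened. Intervals of the differences with widened standard errors were not computed. With widened standard errors neither Ccnd1 (adjusted p = 0.797) nor Ccnd3 (adjusted p = 0.968) was called. The log2 fold change of Ccnd1 was below that of Ccnd3 by 0.29 (difference -0.29, 95% interval -0.47 to -0.11). The intervals of the other cyclin pairs included 0, at -0.29 to 0.053 for Ccnd1 minus Ccnd2 and -0.36 to 0.011 for Ccnd2 minus Ccnd3. Summed over the family, D-type cyclins had 153 CPM per kilobase in Dox and 164 CPM per kilobase in noDox. Ccnd1 made up 67.5% of that sum in Dox and 70.4% in noDox, Ccnd2 17.3% in Dox and 16.6% in noDox, and Ccnd3 15.2% in Dox and 13.0% in noDox. Ccnd1 was thus the main D-type cyclin transcript per length of exon in either group. All levels and shares per kilobase given here assume that reads were counted over exons, which is not stated.

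The annotated spans of the D-type cyclin genes each overlap a gene on the opposite strand, and whether the authors counted by strand is not stated in the labels. The span of LTO1 shares 818 bases with Ccnd1, and its log2 fold change was -0.17 with an adjusted p of 0.0531 by limma in the authors' deposited table. The span of Bysl, which acts in ribosome assembly, shares 358 bases with Ccnd3, and Bysl was lower (-0.20 ± 0.068 (SE), adjusted p = 0.0212 by limma, authors' deposited table). The span of 9330179D12Rik shares 1423 bases with Ccnd2 and had a mean level of 0.0739 CPM. The part of these overlaps in the cyclin values was not tested.

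Of the partner kinases, Cdk6 was 1.48-fold lower with doxycycline and Cdk4 was not called. Cdk6 (NM_009873, chr5:3343893-3531005, plus strand), whose exons of 11507 bases are the longest of the genes described, had 197 CPM in Dox and 292 CPM in noDox, or 17.1 and 25.4 CPM per kilobase in Dox and noDox. Its log2 fold change was -0.57 ± 0.061 (SE; 95% interval -0.69 to -0.45) with an adjusted p of 1.09e-18 by limma in the authors' deposited table. A change at least as far from 0 was seen in 6.97% of all tested genes. Cdk4 (NM_009870, chr10:127063535-127067288, plus strand) had 134 CPM in Dox and 138 CPM in noDox, or 95.7 and 98.2 CPM per kilobase in Dox and noDox. Its log2 fold change was -0.037 ± 0.063 (SE; 95% interval -0.16 to 0.087) with an adjusted p of 0.873 by limma in the authors' deposited table, and its second transcript NM_001355005 had -0.042. Cdk4 changed sign, without a call, under the same 2 alternatives as Ccnd2.

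The log2 fold change of Cdk6 was below that of Cdk4 by 0.53 (difference -0.53, 95% interval -0.70 to -0.36). Per kilobase, both kinases together had 113 CPM in Dox and 124 CPM in noDox. Cdk4 made up 84.8% of this sum in Dox and 79.5% in noDox, and Cdk6 15.2% in Dox and 20.5% in noDox. The promoter with 4 E-boxes, printed above, is that of Cdk4, which was not called, and the promoter of Cdk6, which was lower, holds 1. The part of these sites in the levels was not tested. The row of Tspan31 begins 2 bases from the end of Cdk4, and it had a log2 fold change of 0.17 with an adjusted p of 0.0728 by limma in the authors' deposited table.

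**Figure D2:**
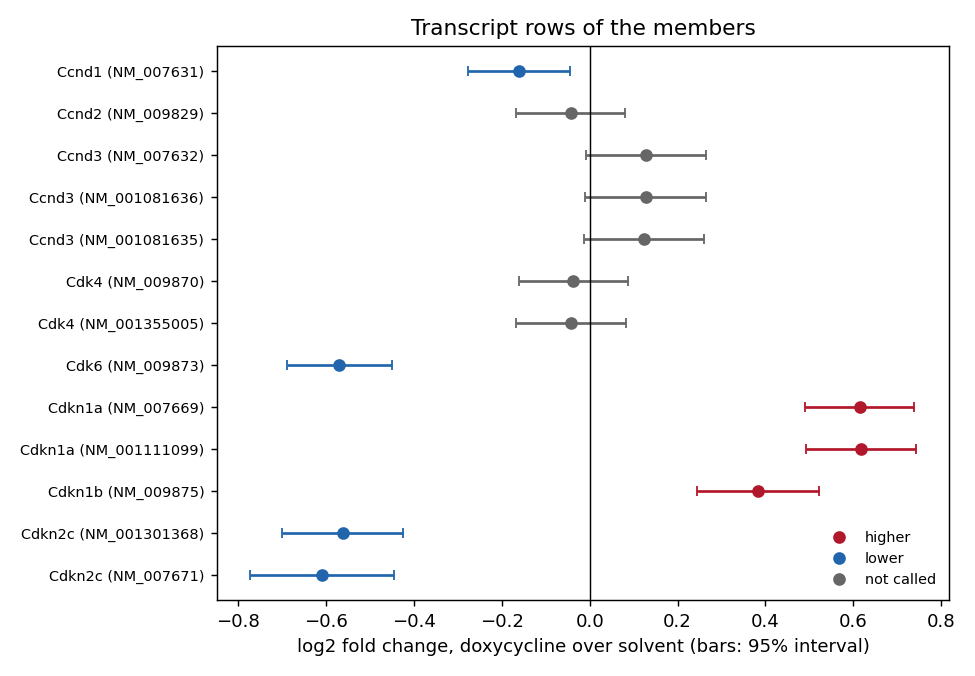
Log2 fold change, Dox over noDox, of each of the 13 transcripts with reads, with 95% intervals from pooled standard errors; red marks higher, blue lower and grey not called. The transcripts of Cdkn1a lie near 0.6, those of Cdkn2c and Cdk6 between -0.7 and -0.5, and other cyclin and Cdk4 transcripts apart from Ccnd1 have intervals across 0.

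Of the Cip/Kip inhibitors, Cdkn1a and Cdkn1b were higher and Cdkn1c had no reads. Cdkn1a encodes p21, a target of p53 and an inhibitor of CDK2 complexes. Its transcript NM_007669 (chr17:29093769-29100722, plus strand) had 144 CPM in Dox and 94.2 CPM in noDox, or 75.6 and 49.4 CPM per kilobase in Dox and noDox. The log2 fold change of Cdkn1a was 0.61 ± 0.064 (SE; 95% interval 0.49 to 0.74), a 1.53-fold higher level (95% interval 1.40 to 1.67), with an adjusted p of 4.77e-20 by limma in the authors' deposited table. A change at least as far from 0 was seen in 5.75% of all tested genes. The transcript from the upstream start, NM_001111099, had 139 CPM in Dox and 90.5 CPM in noDox and a log2 fold change of 0.62 ± 0.064 (SE; adjusted p = 3.91e-20 by limma, authors' deposited table). The 2 starts lie 2790 bases apart, and reads over shared exons can count for either transcript, so use of one start over the other is not resolved.

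Cdkn1b encodes p27, which accumulates in quiescent cells and is largely controlled through protein turnover. Cdkn1b (NM_009875, chr6:134920401-134925525, plus strand) had 40.0 CPM in Dox and 30.6 CPM in noDox, or 16.7 and 12.8 CPM per kilobase in Dox and noDox. Its log2 fold change was 0.38 ± 0.071 (SE; 95% interval 0.24 to 0.52), a 1.30-fold higher level, with an adjusted p of 1.41e-06 by limma in the authors' deposited table. A change at least as far from 0 was seen in 14.6% of all tested genes, and Cdkn1b lost its call with widened standard errors (adjusted p = 0.129). The log2 fold change of Cdkn1a exceeded that of Cdkn1b by 0.23 (95% interval 0.045 to 0.42, from standard errors that were not widened). Cdkn1c, an imprinted gene that encodes p57 (NM_009876, chr7:143458339-143461050, minus strand), had no reads in the 4 libraries, and a count of 0 allows up to 0.0656 CPM per library (3 counts, counting error only). Together the Cip/Kip inhibitors had 92.2 CPM per kilobase in Dox and 62.2 CPM per kilobase in noDox.

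**Figure D3:**
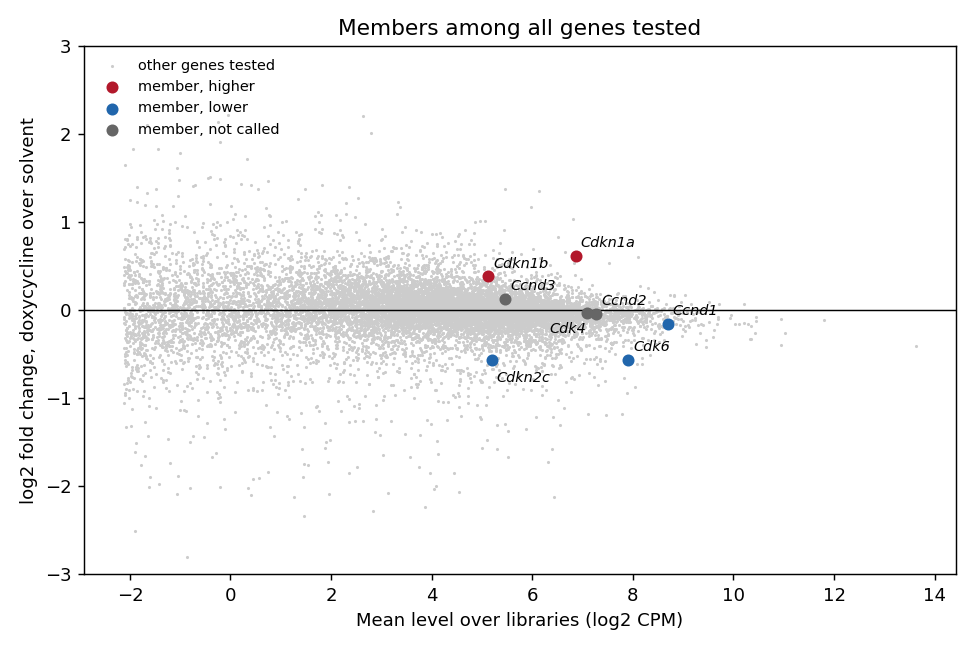
Log2 fold change, Dox over noDox, against mean log2 CPM for all 12355 tested genes (small grey points; 2 lie beyond the vertical range) with the 8 measured genes enlarged and named. Cdkn1a, Cdk6 and Cdkn2c lie toward the edge of the cloud at their level, and Ccnd1, Ccnd2, Ccnd3 and Cdk4 lie within it.

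Of the INK4 inhibitors, Cdkn2c was lower and Cdkn2a had no reads. Cdkn2c encodes p18, which binds CDK4 and CDK6. Its transcript NM_001301368 (chr4:109660876-109666756, minus strand) had 30.2 CPM in Dox and 44.5 CPM in noDox, or 14.8 and 21.9 CPM per kilobase in Dox and noDox. The log2 fold change of Cdkn2c was -0.56 ± 0.070 (SE; 95% interval -0.70 to -0.42), a 1.48-fold lower level, with an adjusted p of 7.53e-14 by limma in the authors' deposited table. A change at least as far from 0 was seen in 7.11% of all tested genes. The shorter transcript NM_007671, which starts 1384 bases downstream, had 10.9 CPM in Dox and 16.6 CPM in noDox and a log2 fold change of -0.61 ± 0.084 (SE; adjusted p = 1.72e-11 by limma, authors' deposited table). Its span lies within that of NM_001301368, and reads over shared exons can count for either transcript. Use of one Cdkn2c start over the other is therefore not resolved. The sequence before the NM_007671 start has a GC content of 42.8% and none of the motifs, against 77.2% and 3 GC boxes at the start printed above and a median of 52.4% over all promoters.

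Cdkn2a encodes p16 and, from an upstream first exon, the p53 activator ARF, and NIH-3T3 cells are known to have lost the locus. Both transcripts, NM_001040654 (chr4:89274473-89282192) and NM_009877 (chr4:89274473-89294619, minus strand), had no reads. Rows without reads share a log2 fold change of -0.21 in the authors' deposited table, which is set by the library sizes and is no measurement of these genes. Summed over Cdkn1a, Cdkn1b and Cdkn2c alone, without Cdkn2d, which is described with the pathway, Cdkn1a made up 70.6% of the level per kilobase in Dox and 58.7% in noDox, Cdkn1b 15.6% in Dox and 15.2% in noDox, and Cdkn2c 13.9% in Dox and 26.1% in noDox. The sum of the 3 was 107 CPM per kilobase in Dox and 84.1 CPM per kilobase in noDox. Of these 3, Cdkn2c had the second highest level per length in noDox and the lowest in Dox, where it lay close to Cdkn1b.

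The genes that act beside these in G1 and at the start of S phase were taken from 7 lists of 45 genes in the table, of which 42 were tested. Of these 42 genes, 5 were called higher and 7 lower, against 11.3% and 13.4% of all tested genes, and their median log2 fold change was 0.033 in the authors' deposited table. With widened standard errors, under which 4.66% of all tested genes were called, 1 was higher (Cdkn2d) and 2 lower (Myc and Klf4). The other 9 called genes named below then lost their calls, at adjusted p of 0.180 to 0.727. Of the other INK4 genes, Cdkn2d, which encodes p19, was higher at 12.0 CPM in Dox and 7.29 CPM in noDox (log2 fold change 0.72 ± 0.092 (SE), adjusted p = 4.20e-13 by limma, authors' deposited table), while Cdkn2b had no reads. The log2 fold change of Cdkn2c was below that of Cdkn2d by 1.28 (difference -1.28, 95% interval -1.50 to -1.05), so the 2 measured INK4 genes moved in opposite directions.

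Of 5 tested genes of the cyclin E and A kinases, 2 were higher and none was called lower. Ccne1, the cyclin that activates CDK2 at the start of S phase, had a log2 fold change of 0.33 ± 0.073 (SE; adjusted p = 1.35e-04 by limma) and Cdk2 one of 0.27 ± 0.071 (SE; adjusted p = 0.00216) in the authors' deposited table. Of the 3 pocket proteins, which hold E2F factors inactive, Rbl1 (0.29 ± 0.071 (SE), adjusted p = 6.33e-04 by limma) and Rbl2 (0.25 ± 0.080 (SE), adjusted p = 0.0147) were higher in the authors' deposited table. Rb1 had 0.18 ± 0.090 (SE; adjusted p = 0.225 by limma, authors' deposited table). Of 9 tested E2F and DP factors, 2 were lower, both of the group that works with pocket proteins as repressors: E2f4 at -0.21 ± 0.070 (SE; adjusted p = 0.0231 by limma) and E2f5 at -0.44 ± 0.089 (SE; adjusted p = 1.97e-05) in the authors' deposited table. Ccna1 had no reads and E2f6 was below the floor.

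None of 4 genes of the CDK-activating kinase and the kinase chaperone was called. Of 9 genes of protein turnover, 2 were lower, the F-box genes Fbxo31 (-0.41 ± 0.082 (SE), adjusted p = 8.28e-06 by limma), whose protein directs cyclin D1 to degradation after DNA damage, and Fbxw7 (-0.28 ± 0.078 (SE), adjusted p = 0.00440), whose protein directs cyclin E and MYC to degradation, in the authors' deposited table. Of 11 upstream regulators, 3 were lower. Myc, a repressor of Cdkn1a transcription, had 59.5 CPM in Dox and 146 CPM in noDox, with a log2 fold change of -1.30 ± 0.065 (SE; adjusted p = 4.36e-86 by limma, authors' deposited table). Klf4, a zinc finger factor that can induce Cdkn1a, had 131 CPM in Dox and 231 CPM in noDox, with a log2 fold change of -0.81 ± 0.062 (SE; adjusted p = 6.42e-37 by limma, authors' deposited table). Bmi1, a Polycomb gene that represses Cdkn2a, had a log2 fold change of -0.25 ± 0.069 (SE; adjusted p = 0.00377 by limma, authors' deposited table). Of the p53 genes, Trp53 had -0.083 (adjusted p = 0.542 by limma) and Mdm2, a p53 target, 0.12 (adjusted p = 0.251) in the authors' deposited table, and neither was called.

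**Figure D4:**
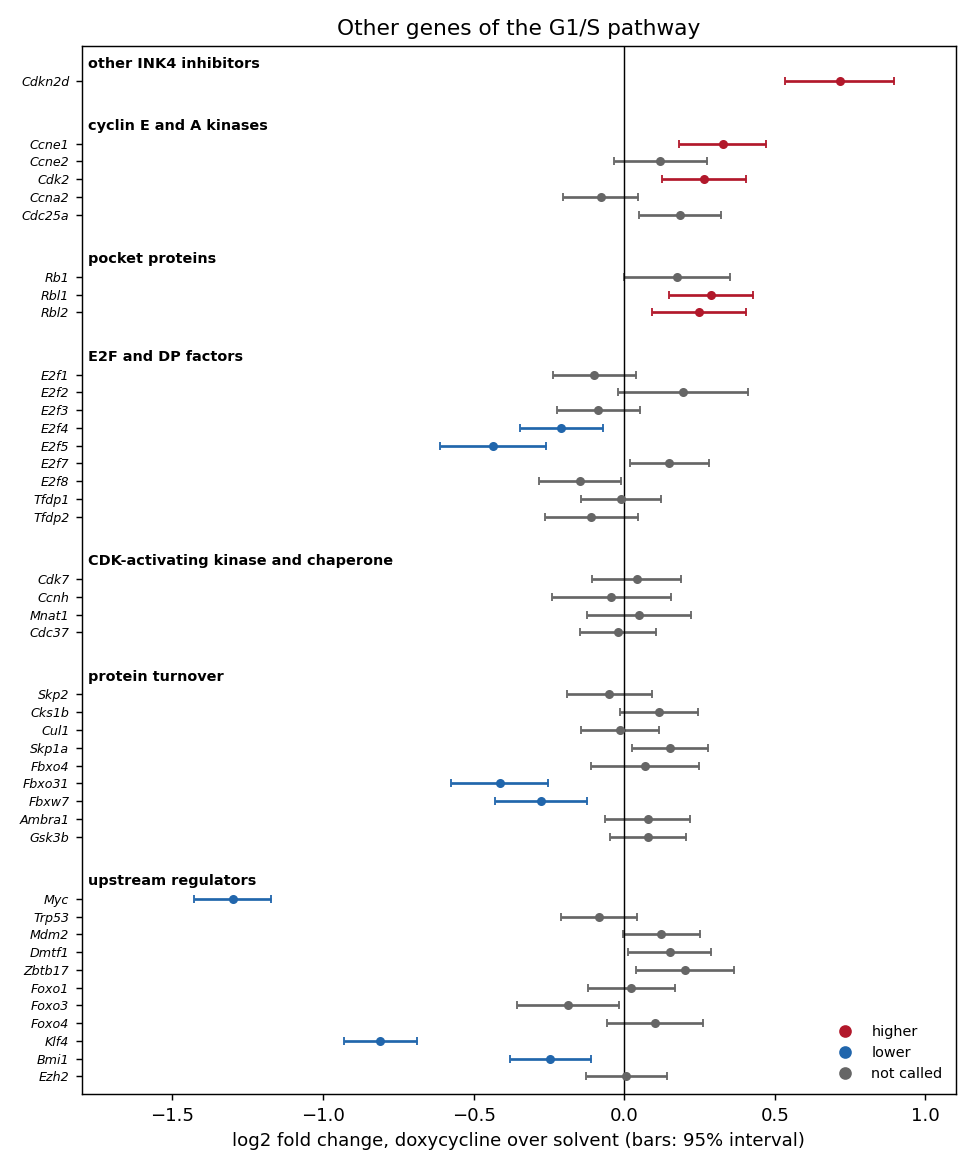
Log2 fold change, Dox over noDox, with 95% intervals from pooled standard errors, for the 42 tested genes of the surrounding pathway, grouped by list; red marks higher, blue lower and grey not called. Myc and Klf4 lie farthest to the left and Cdkn2d farthest to the right.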

How the data were processed

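Nuclear RNA of 2 Dox and 2 noDox libraries was measured, grouped by the sample titles. Per the submitters' processing notes, which assign no roles, the tools included STAR 2.7.1a, HOMER 4.10, SAMtools 1.10, Picard, limma and edgeR, and the build was mm10. The authors' deposited table holds, per the file headers, for each transcript the mean log2 expression and log2 fold change, the t score and the raw and adjusted p-value, with other columns for its start, end and exon length. The counting of reads is not stated there.

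The table holds no values per library, so the planned count test was not run and the authors' limma test took its place. The standard error is the log2 fold change divided by t, and 95% intervals assume normal errors. Where the replicates came from is not labelled. The p-values rest on a spread between these libraries that is pooled over genes and may be technical. Of several transcripts of a gene, the one with the highest mean level stands for it. A gene was tested at a geometric mean of at least 10 counts per library (0.230 CPM) and called at an adjusted p below 0.05. The level of each group followed from the mean log2 CPM and the log2 fold change, with equal weight for both groups. All genes described and all called pathway genes are named. The genes, lists, pairs and motifs were chosen with earlier results of these data known. Motifs were searched in RefSeq promoters, GRCm38.p6. The functions for p-values, the SD of t and the trend with level were tested on simulated data, with normal errors of the deposited size. The authors' limma calls were not tested in this way. The calculations used Python 3.11.15, numpy 2.4.6, pandas 2.3.3 and scipy 1.17.1. Alternatives are given in the closing section.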

Additional observations from a re-analysis of the deposited data

How the results depend on the processing

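Cdk6, Cdkn1a and Cdkn2c kept their direction and their call under the deposited setting and the 9 alternatives run, with log2 fold changes of -0.57 to -0.49, 0.61 to 0.66 and -0.56 to -0.52. Not all alternatives could change these calls. Leaving out the floor or raising it to 50 counts keeps their deposited fold changes and adjusted p. Taking the transcript with the greatest exon length keeps the same row for Cdk6 and Cdkn2c. Cdkn1b ranged from 0.38 to 0.43. With standard errors multiplied by 2.08, the genes described that were called higher numbered 1 (Cdkn1a) in place of 2, and the pathway genes called numbered 1 higher and 2 lower in place of 5 and 7. With the ribosomal protein median (-0.044, 82 genes) set to 0, 11 pathway genes were called higher in place of 5. That zero point moved the share of higher calls among all calls to 59.5% (2136 higher, 1451 lower), against 45.7% as deposited (1393 higher, 1654 lower). Widened errors moved it to 33.0% (190 higher, 386 lower) of 576 calls. The sign turned for Ccnd2 (3.02e-04 with the ribosomal zero point, 0.027 after removal of the trend with level) and for Cdk4 (0.0066 and 0.019 under the same alternatives), none of them called. The causes were not tested. No paired analysis was possible because the table holds no values per library, and leaving out single libraries was not run for the same reason. At 0.0656 CPM per library for a count of 0, depth limits statements on Cdkn1c and Cdkn2a.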

Other observations

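The genes that flank the called members were looked at as a description of each locus, by the nearest tested gene on either side. None of them was called in the authors' deposited table, where 24.7% of all tested genes were. For Cdk6 a tested gene lay only on the side of higher coordinates. Ano1 (0.249 CPM, log2 fold change -0.82 ± 0.36 (SE)) and Tpcn2 (0.18) flank Ccnd1. Ano1, Trp53cor1 (0.363 CPM) and 2810454H06Rik (0.500 CPM, beside Cdkn1b, -0.094) had mean levels near the floor of 0.230 CPM, where standard errors are large. Rnf11, beside Cdkn2c, had a log2 fold change of 0.11. Beside Cdkn1a, the noncoding gene Trp53cor1 lies 11853 bases away with a log2 fold change of -0.021 ± 0.28 (SE), and Ppil1 lies 150113 bases away with 0.15, in the authors' deposited table. Beside Cdkn1b, the noncoding gene Lockd lies 3567 bases away and had a log2 fold change of 0.11 (adjusted p = 0.800 by limma, authors' deposited table). Beside Cdk6, Fam133b lies 12828 bases away with 0.022, and beside Cdkn2c, Faf1 lies 9871 bases away with -0.017, as log2 fold changes in the authors' deposited table.

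The nearest tested gene to the Cdkn2a rows without reads was Mtap, 93383 bases away, which had 128 CPM in Dox and 152 CPM in noDox (log2 fold change -0.24 ± 0.063 (SE), adjusted p = 0.00175 by limma, authors' deposited table). Cdkn2b, which adjoins Cdkn2a, had no reads either. Near Cdkn1c, which had no reads, the imprinted noncoding gene Kcnq1ot1 was lower (log2 fold change -0.25, adjusted p = 0.00285 by limma, authors' deposited table) and Nap1l4 was not called (0.092).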
